A study of Mus musculus with 11 samples.

Results

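The genes described here are 32 genes that neurons and their axons use far more than microglia do, read in RNA pulled down with tagged microglial ribosomes from mouse spinal cord. They were taken by symbol from the 39017 genes of the deposited count table. All 32 are in the table, and 31 of the 16025 genes with enough counts to test are among them. Meg3 had 0 counts in every library and is treated below as not measured.

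RiboTag mice carry an allele of the ribosomal protein gene Rpl22 that gains an epitope tag once Cre has acted, so that ribosomes of the Cre-expressing cells can be pulled down with the RNA on them. Per the labels all 11 samples were spinal cord of female C57BL/6 mice labelled healthy normal, and both genotypes carried the RiboTag allele with Tmem119-Cre/ERT2, an inducible Cre driven from a microglial gene. The conditional knockout (cKO, 5 samples: cKO2, cKO4, cKO5, cKO6 and cKO7) had Kdm6a, an X-linked histone demethylase gene, deleted by the same Cre. The wild type (WT, 6 samples: WT8, WT9, WT13, WT15, WT16 and WT17) kept it. The Cre therefore set both which cells were tagged and which cells lost Kdm6a. The sources used here give no induction schedule, age or batch. Nor do they state that each sample was a separate animal, so the p-values reflect only how far these samples scatter. No library of the whole tissue was among the samples, so the level of a gene in the pulldown could not be set against its level in the cord. In bulk samples, fewer cells of a type and less RNA per cell cannot be told apart.

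A spinal neuron sends an axon whose length dwarfs its cell body, and it fills that axon with neurofilaments, microtubules and kinesin motors. Its terminals release transmitter when vesicle and target membrane SNARE proteins join after calcium binds synaptotagmin, and ankyrins with spectrins hold channels in place at the axon's initial segment and nodes. Microglia make little or none of most of these proteins, but they touch and engulf axons, myelin and synapses.

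Totals per library ran from 28620584 to 40943004 counts, and levels are given as CPM, counts relative to the library total after scaling by TMM factors, which lay between 0.956 and 1.072. Kdm6a was at 3.80 to 7.73 CPM in cKO and 7.24 to 12.03 CPM in WT, ranges that overlapped (edgeR log2 fold change -0.61, SE 0.25, adjusted p = 0.193). The sources used here do not give the deleted exons, so reads from exons that remain count towards these values. Microglial markers led the libraries: per kilobase of the longest annotated transcript, the median of 15 microglial genes was 623 CPM, against 20.5 for the 31 neuron and axon genes, 20.5 for 14 oligodendrocyte genes and 13.6 for 14 astrocyte genes. The summed level of the microglial list was 64090 to 67020 CPM in cKO and 46270 to 60870 CPM in WT, lowest in WT17, WT13 and WT16, and Aif1 of that list was at 0. Of 13 Hox genes that mark spinal cord position all 13 were tested. Of 5 forebrain genes 2 were tested and 2 were at 0, Emx1 among them. The 5 summed to 0.922 to 6.36 CPM in cKO and 0.057 to 2.75 CPM in WT. Of 11 genes that mark sensory neurons of the dorsal root ganglion, 5 were tested. Another 4 were at 0, among them Scn10a, Trpv1 and Mrgprd. The 11 summed to 9.07 to 18.4 CPM in cKO and 11.9 to 15.5 CPM in WT. With Aif1 at 0 as well, a 0 was not read as absent RNA.

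Levels differed widely between the markers. In the cKO libraries the highest mean levels per kilobase were those of Nefl (85.1 CPM), Nefh (82.8 CPM), Nefm (78.7 CPM), Kif5a (75.4 CPM) and Thy1 (60.8 CPM). In the WT libraries they were those of Nefh (165 CPM), Map1a (160.2 CPM), Nefl (110.2 CPM), Nefm (106 CPM) and Kif5a (102 CPM). Map1a, at 53.6 CPM per kilobase in cKO, and Snhg11, at 32.3 in cKO and 74.3 in WT, stood lower in the cKO order than in the WT order, and WT13, WT16 and WT17 were their 3 highest libraries. The lowest in both genotypes was Chat, the enzyme that makes acetylcholine in motor neurons, at 0.406 CPM per kilobase in cKO and 0.379 in WT. Next above it in both genotypes were Gad2, one of the enzymes of GABA synthesis (0.640 and 1.13 CPM), and the dendritic microtubule gene Map2 (1.92 and 3.74 CPM).

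Windows around the start sites of 22 of the 32 genes were found in RefSeq (GRCm38.p6, written 5′ to 3′ on the strand of the gene; 250 bases before to 50 after a start, 31 windows in all). The first windows shown belong to Map1a, which had the largest fold between libraries, to Snhg11, high in the same libraries, and to Syp, which had the smallest. The others are those of Syn1 and Sptbn4, which hold letters of a neuronal silencer element.
Map1a, chr2:121289352-121289651, plus strand: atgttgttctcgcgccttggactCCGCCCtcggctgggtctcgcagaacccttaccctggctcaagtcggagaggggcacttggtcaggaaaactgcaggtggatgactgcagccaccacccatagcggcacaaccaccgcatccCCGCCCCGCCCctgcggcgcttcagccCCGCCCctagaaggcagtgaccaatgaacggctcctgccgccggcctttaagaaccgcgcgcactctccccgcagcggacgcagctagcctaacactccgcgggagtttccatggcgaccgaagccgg
Snhg11, chr2:158375463-158375762, plus strand: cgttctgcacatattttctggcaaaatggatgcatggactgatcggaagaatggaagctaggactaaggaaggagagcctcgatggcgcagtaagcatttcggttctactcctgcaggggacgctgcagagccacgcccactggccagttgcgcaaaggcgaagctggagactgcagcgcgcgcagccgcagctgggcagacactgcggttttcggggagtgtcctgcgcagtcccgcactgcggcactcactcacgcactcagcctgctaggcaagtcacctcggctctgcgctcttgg
Syp, chrX:7638330-7638629, plus strand: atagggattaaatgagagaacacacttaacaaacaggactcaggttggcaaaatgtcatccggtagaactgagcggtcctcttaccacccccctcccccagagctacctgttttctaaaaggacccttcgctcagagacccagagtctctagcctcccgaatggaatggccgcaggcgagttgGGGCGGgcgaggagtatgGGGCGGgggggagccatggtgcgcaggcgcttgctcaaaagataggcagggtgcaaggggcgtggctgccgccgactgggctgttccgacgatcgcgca
Syn1, chrX:20920869-20921168, minus strand: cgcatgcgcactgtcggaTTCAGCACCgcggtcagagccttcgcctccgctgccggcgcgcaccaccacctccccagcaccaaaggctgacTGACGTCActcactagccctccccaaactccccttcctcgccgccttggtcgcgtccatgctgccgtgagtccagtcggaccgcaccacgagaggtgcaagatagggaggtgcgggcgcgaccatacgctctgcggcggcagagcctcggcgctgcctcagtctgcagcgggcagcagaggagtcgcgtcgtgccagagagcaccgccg
Sptbn4, chr7:27396149-27396448, minus strand: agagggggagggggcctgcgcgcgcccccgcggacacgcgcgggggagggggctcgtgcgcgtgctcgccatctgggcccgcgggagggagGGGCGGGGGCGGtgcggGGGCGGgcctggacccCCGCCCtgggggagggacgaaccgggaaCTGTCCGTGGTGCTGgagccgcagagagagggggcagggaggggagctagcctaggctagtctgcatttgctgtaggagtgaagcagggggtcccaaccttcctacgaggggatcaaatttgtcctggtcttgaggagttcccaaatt
Capitals mark matches, on either strand, to 5 motifs. RE1 is the element bound by REST, which keeps neuronal genes silent in other cells. Its core, CAGCACC and GGACAG with 2 bases of any kind between them, was found in 0.0365% of all 32851 windows. Among the 31 it was in 1, the Sptbn4 window shown, on the opposite strand. The other windows of Sptbn4 did not hold it. The left end of RE1, TTCAGCACC, which shares the bases CAGCACC with the core, was found in 0.371% of all windows and here in Syn1. The cyclic AMP response element TGACGTCA was found in 1.79% of all windows and in those of Syn1, Kif5c and Meg3. The GC box GGGCGG was found in 35.7% of all windows and in 15 of the 31, and TATAAA in 13.6% of all windows and in 7 of the 31. The median window held 14 CpG dinucleotides, against 7 over all windows. A match describes these letters only.

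Between the genotypes no neuron or axon gene passed. In edgeR's quasi-likelihood F test, with p adjusted over all 16025 genes and a threshold of 0.05, 0 of the 31 were higher and 0 lower in cKO, where 4.29% of all genes passed in either direction, 1.86% higher and 2.43% lower. At an unadjusted edgeR p under 0.05 there were 12 of 31 genes, against 18.3% of all genes. DESeq2 called 6 lower (Map2, Map1a, Kif5a, Ank3, Rbfox3 and Snhg11; 5.29% of the genes it gave an adjusted p were called lower), and limma-voom with sample weights called 0 (2.69% of all genes were lower in it). The log2 fold change was negative for 25 of the 31, where 51.6% of all genes were negative, and its median was -0.40 against -0.013 over all genes. With limma-voom and sample weights the median of the 31 was -0.17. For none of the 31 did the libraries of one genotype all lie above those of the other, an arrangement that 4.16% of all genes had.

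The lean towards WT came with 3 libraries. In 19 of the 31 genes WT13, WT16 and WT17 were the 3 highest of the 11 libraries, against 6.71% of all genes. These libraries were picked in earlier work on marker levels that included some of these genes, so that the count is a description. The same holds for every fit without them given here and below. Leaving them out lowers the WT level of any gene high in them, and only WT8, WT9 and WT15 remain as WT. Without them 0 of the 31 passed in edgeR (3.21% of all genes did, 0.999% higher and 2.21% lower), the median log2 fold change was -0.0099, and 16 of the 31 were negative against 49.4% of all genes. WT17 was the highest library for 19 genes and WT13 for 6, while cKO2 was the lowest for 12.

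**Figure D1:**
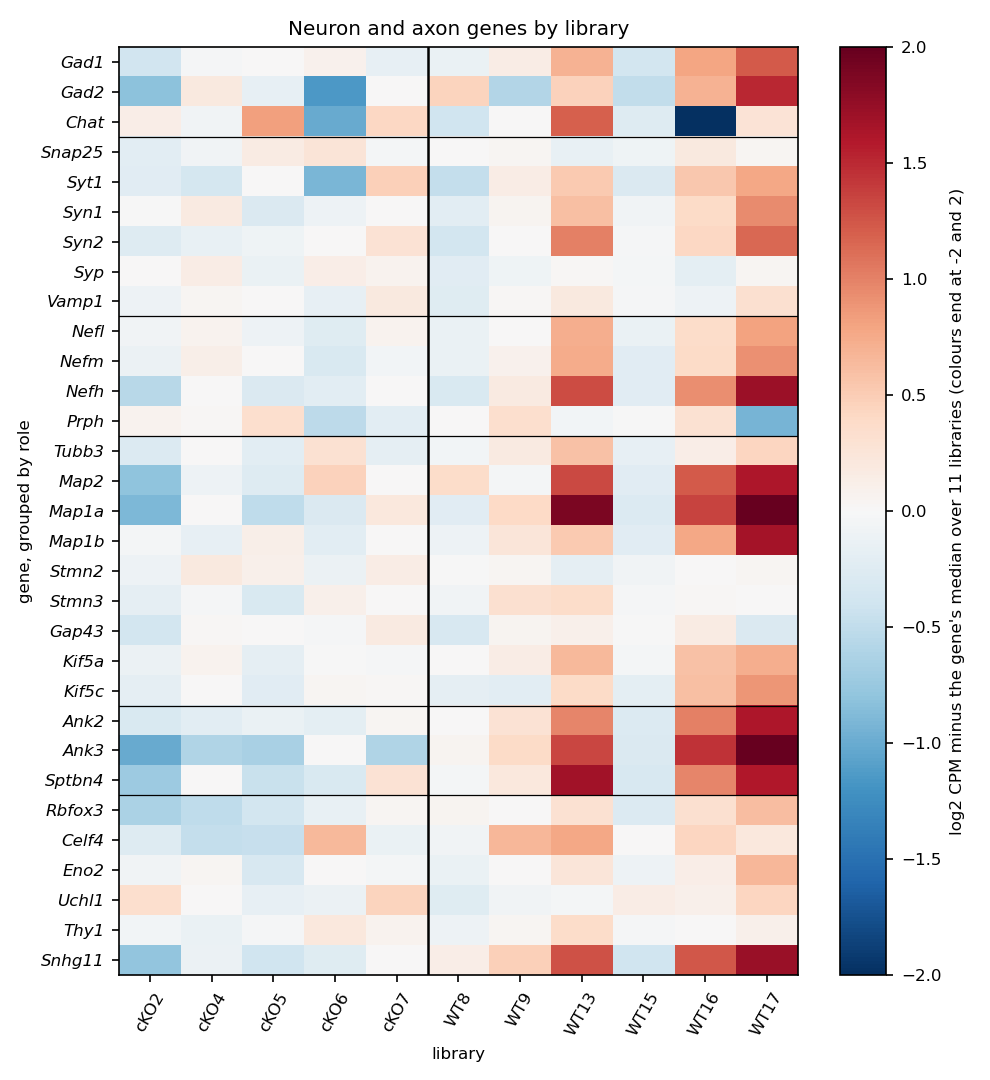
Level of each of the 31 measured neuron and axon genes in each library, as log2 CPM minus the median of that gene over the 11 libraries (colour; red is above the median). Rows are grouped by role, cKO libraries stand left of the line and WT libraries right; WT13, WT16 and WT17 are the 3 highest libraries in 19 of the 31 rows.

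**Figure D2:**
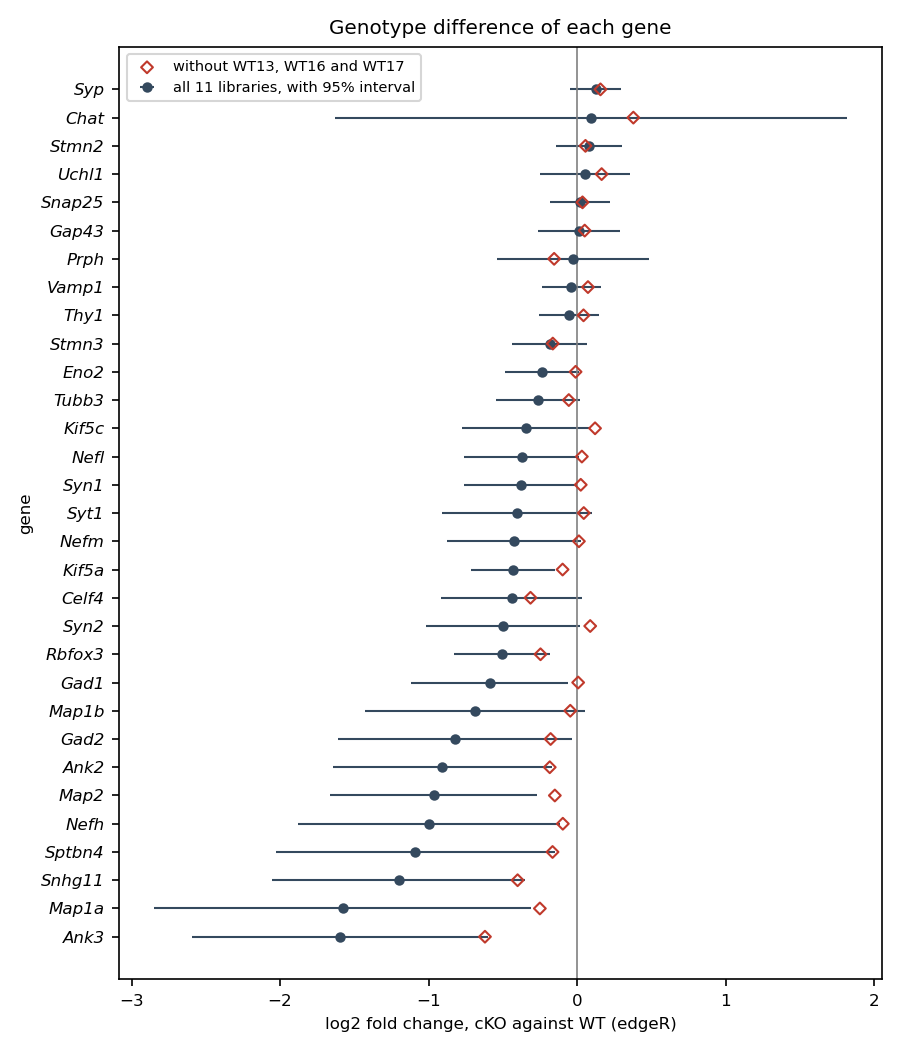
Log2 fold change of each gene, cKO against WT, from edgeR on all 11 libraries (filled points, lines are 95% intervals) and without WT13, WT16 and WT17 (open diamonds). The median moves from -0.40 to -0.0099 when the 3 libraries, picked earlier on marker levels, are left out.

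Among the enzymes that make transmitters, Gad1, a glutamate decarboxylase that makes GABA (ENSMUSG00000070880, chromosome 2, 70553072 to 70602014, plus strand, mm10), was at 7.61, 9.73, 9.90, 10.5 and 8.85 CPM in the cKO libraries, in the order 2, 4, 5, 6 and 7. It was at 9.08, 10.9, 16.1, 7.67, 17.2 and 23.1 CPM in the WT libraries, in the order 8, 9, 13, 15, 16 and 17, and values are given in these orders throughout. WT13, WT16 and WT17 were the highest, and the other 3 WT libraries lay within or just beside the cKO range. The means were 9.32 ± 1.12 CPM in cKO (SD, n = 5) and 14.00 ± 5.83 CPM in WT (SD, n = 6), with an edgeR log2 fold change of -0.59 (SE 0.26, adjusted p = 0.217). Without the 3 libraries the log2 fold change of Gad1 was 0.0074. Gad2, the other decarboxylase, ran from 2.05 to 5.18 CPM in cKO and 3.02 to 12.97 CPM in WT and was also highest in those 3 (edgeR log2 fold change -0.82, SE 0.38, adjusted p = 0.249).

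Chat (ENSMUSG00000021919, chromosome 14, 32408203 to 32465989, minus strand) was at 1.12, 0.979, 1.82, 0.512 and 1.36 CPM in cKO and 0.780, 1.03, 2.36, 0.856, 0.232 and 1.25 CPM in WT. Its highest and lowest libraries were WT13 and WT16, both WT, and the groups overlapped throughout (edgeR log2 fold change 0.10, SE 0.83, adjusted p = 0.975). The 95% interval of the log2 fold change ran from -1.63 to 1.82.

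The vesicle and release genes split. Snap25, the SNARE protein of the terminal membrane (ENSMUSG00000027273, chromosome 2, 136713453 to 136782428, plus strand), was at 84.9, 93.9, 109.7, 118 and 96.04 CPM in cKO and 98.4, 102, 88.7, 92.8, 113 and 101 CPM in WT. Both the highest and the lowest library were cKO, and WT13 stood below WT8 and WT9. The means were 100.5 ± 13.2 CPM in cKO (SD, n = 5) and 99.2 ± 8.25 CPM in WT (SD, n = 6), with a log2 fold change of 0.019 and a 95% interval from -0.18 to 0.22 (edgeR adjusted p = 0.955). Syp, the vesicle membrane protein synaptophysin, chosen for full values after they were seen, was at 142, 157, 129.8, 155 and 149.5 CPM in cKO and 121, 134, 144, 137, 124 and 145 CPM in WT. Its libraries lay within 1.29-fold of each other, with WT8 and WT16 the lowest (edgeR log2 fold change 0.13, SE 0.083, adjusted p = 0.466). Exons of Syp overlap Gm14703 on the other strand, at 52.8 to 82.2 CPM, so reads could be shared between them. Vamp1, the vesicle SNARE common in spinal cord and brain stem, ran from 237 to 305 CPM in cKO and 224 to 332 CPM in WT (edgeR log2 fold change -0.037, SE 0.10, adjusted p = 0.902).

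Syt1, the calcium sensor of release (ENSMUSG00000035864, chromosome 10, 108497650 to 109010982, minus strand), was at 13.7, 12.6, 15.96, 8.48 and 22.1 CPM in cKO and 11.5, 17.6, 22.9, 13.1, 23.2 and 27.4 CPM in WT. WT13, WT16 and WT17 were its 3 highest libraries, but cKO7 came close to WT13. The means were 14.6 ± 5.02 CPM in cKO (SD, n = 5) and 19.3 ± 6.25 CPM in WT (SD, n = 6), with an edgeR log2 fold change of -0.40 (SE 0.24, adjusted p = 0.412). The synapsins, which tether vesicles to each other, were highest in the same 3 libraries. Syn1 ran from 68.8 to 94.6 CPM in cKO and 72.4 to 162 CPM in WT (edgeR log2 fold change -0.38, SE 0.18, adjusted p = 0.273). Exons of Syn1 overlap Araf on the other strand, at 40.25 to 71.5 CPM, so reads could be shared between them. Syn2 ran from 23.8 to 34.9 CPM in cKO and 22.1 to 63.3 CPM in WT (edgeR log2 fold change -0.50, SE 0.24, adjusted p = 0.297). Without the 3 libraries the log2 fold changes of Syt1, Syn1 and Syn2 were 0.045, 0.025 and 0.089.

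The neurofilament subunits, which fill large axons, followed the 3 libraries, and the heavy subunit did so most. The light chain Nefl (ENSMUSG00000022055, chromosome 14, 68083863 to 68089095, plus strand) was at 283, 312, 278, 251 and 313 CPM in cKO and 270.2, 298, 491, 272, 383 and 519.6 CPM in WT. The medium chain Nefm (ENSMUSG00000022054, chromosome 14, 68082590 to 68124846, minus strand) was at 279, 329, 303, 245 and 292 CPM in cKO and 278, 320.0, 509, 259.9, 394 and 572 CPM in WT. In both, WT8, WT9 and WT15 lay within the cKO range while WT16, WT13 and WT17 lay above it. The means of Nefl were 288 ± 26.1 CPM in cKO (SD, n = 5) and 372 ± 111 CPM in WT (SD, n = 6), with an edgeR log2 fold change of -0.37 (SE 0.18, adjusted p = 0.294). The means of Nefm were 289.5 ± 30.9 CPM in cKO (SD, n = 5) and 389 ± 128 CPM in WT (SD, n = 6), with an edgeR log2 fold change of -0.43 (SE 0.21, adjusted p = 0.308). The annotated exons of Nefl and Nefm overlap on opposite strands, and no source used here gives the strand setting of the counting, so reads could be shared between them.

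The heavy chain Nefh (ENSMUSG00000020396, chromosome 11, 4938754 to 4948064, minus strand) was at 259, 379, 309, 325 and 381 CPM in cKO and 306, 428, 937, 322, 723 and 1241 CPM in WT. WT17 was 4.79-fold above cKO2, the lowest library. The means were 331 ± 51.2 CPM in cKO (SD, n = 5) and 659.5 ± 377 CPM in WT (SD, n = 6), with an edgeR log2 fold change of -0.996 (SE 0.39, adjusted p = 0.216), and the log2 fold change was -0.10 without the 3 libraries. Peripherin, Prph, the filament protein of neurons that project out of the cord (ENSMUSG00000023484, chromosome 15, 99055174 to 99058978, plus strand), was at 10.1, 9.85, 12.3, 6.73 and 8.37 CPM in cKO and 9.69, 12.2, 9.29, 9.63, 12.02 and 5.10 CPM in WT. It did not follow the other filaments: WT17, the highest library for all 3 neurofilament chains, was its lowest (edgeR log2 fold change -0.027, SE 0.25, adjusted p = 0.976).

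**Figure D3:**
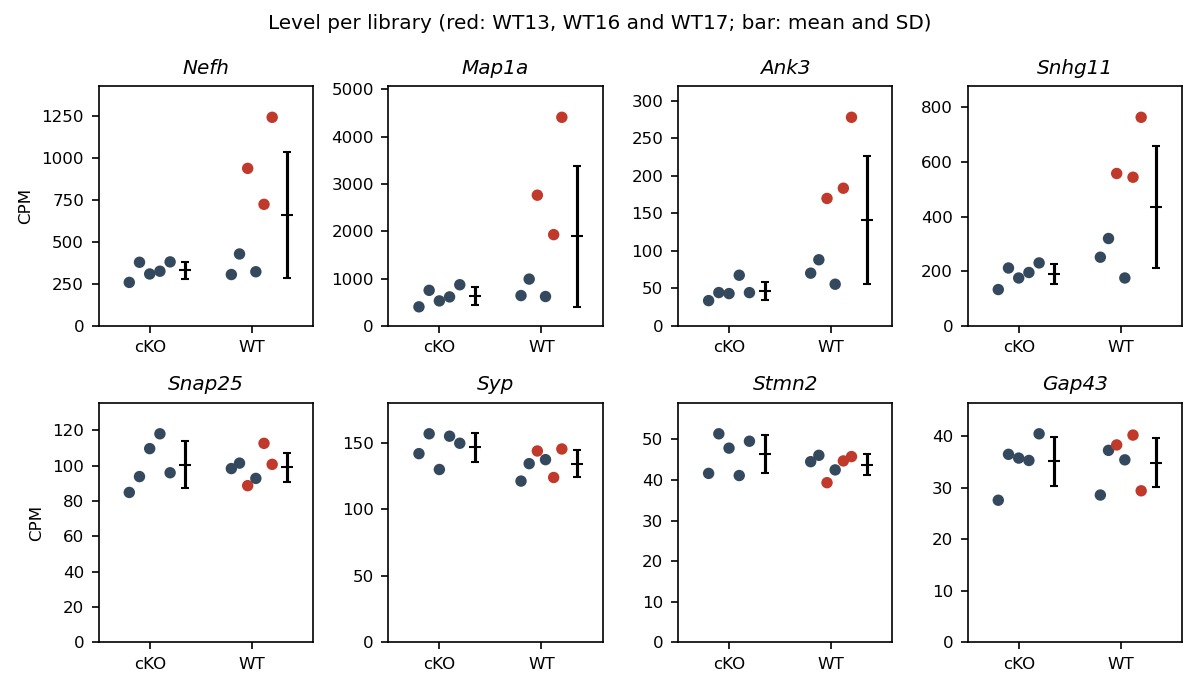
Level of 8 genes in CPM (vertical axes start at 0) in each cKO and WT library, one point per library, with mean and SD as bars; WT13, WT16 and WT17 are red. The upper genes run to 1241 CPM (Nefh), 4411 CPM (Map1a), 278 CPM (Ank3) and 764 CPM (Snhg11) in WT17, while for Snap25, Syp, Stmn2 and Gap43 no red point is the highest.

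By the SD of log2 CPM over the WT libraries, the microtubule and axon growth genes held both the most variable and the steadiest of the 31 genes. Map1a, a large microtubule-associated protein of mature neurons chosen for full values after they were seen (ENSMUSG00000027254, chromosome 2, 121289600 to 121310832, plus strand), was at 404, 753, 529, 614 and 871 CPM in cKO. It was at 641, 990.0, 2764, 622, 1930 and 4411 CPM in WT, where WT15 lay with the cKO libraries and WT17 was 10.9-fold above cKO2. The means were 634 ± 184 CPM in cKO (SD, n = 5) and 1893 ± 1490 CPM in WT (SD, n = 6), with an edgeR log2 fold change of -1.58 (SE 0.56, adjusted p = 0.175), and the log2 fold change was -0.25 without the 3 libraries. Map1a alone took 12.1 to 20.1% of the counts of all 31 genes in cKO, and 32.8, 27.6 and 38.5% in WT13, WT16 and WT17. Its exons overlap Ppip5k1 on the other strand, which ran from 25.5 to 44.9 CPM in cKO and reached 75.2, 52.9 and 77.4 CPM in WT13, WT16 and WT17.

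Map1b, its relative in growing axons (ENSMUSG00000052727, chromosome 13, 99421446 to 99516540, minus strand), was at 182, 167, 203, 162 and 188 CPM in cKO and 174, 222, 270.4, 159.9, 321 and 593 CPM in WT. WT17 was the highest by far, WT16 and WT13 followed, and WT15 was the lowest of all 11. The means were 180.4 ± 16.7 CPM in cKO (SD, n = 5) and 290.1 ± 159.9 CPM in WT (SD, n = 6), with an edgeR log2 fold change of -0.69 (SE 0.33, adjusted p = 0.315). Map2, the microtubule protein of dendrites, ran from 7.30 to 17.5 CPM in cKO and 10.9 to 39.1 CPM in WT, with the same 3 libraries highest (edgeR log2 fold change -0.96, SE 0.33, adjusted p = 0.12). Tubb3, the neuronal beta-tubulin (ENSMUSG00000062380, chromosome 8, 123411424 to 123422015, plus strand), was at 49.2, 59.3, 51.02, 73.4 and 52.6 CPM in cKO and 56.9, 67.5, 89.5, 53.00, 64.99 and 79.7 CPM in WT. WT13 and WT17 were its highest libraries, cKO6 came next, and WT16 was not set apart (edgeR log2 fold change -0.26, SE 0.14, adjusted p = 0.31).

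The kinesin-1 heavy chains carry cargo from the cell body along the axon. Kif5a (ENSMUSG00000074657, chromosome 10, 127225696 to 127263348, minus strand) was at 455, 517, 432, 487 and 482 CPM in cKO and 492, 546, 775, 481, 735 and 817 CPM in WT. The cKO libraries lay close together, with WT8 and WT15 among them, WT9 just above and the 3 others well above. The means were 475 ± 32.3 CPM in cKO (SD, n = 5) and 641 ± 152 CPM in WT (SD, n = 6), with an edgeR log2 fold change of -0.43 (SE 0.13, adjusted p = 0.0812). Kif5a passed in edgeR when WT8 was left out (adjusted p = 0.025; 2.76% of all genes were then lower) or WT15 (adjusted p = 0.0169; 3.52%), and its log2 fold change was -0.10 without the 3 libraries. Kif5c ran from 108 to 129.5 CPM in cKO and 109.5 to 231 CPM in WT; its log2 fold change was -0.35 with all libraries and 0.12 without the 3.

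Stmn2, Gap43 and Stmn3 differed less between libraries than Map1b did, by 1.31-fold, 1.47-fold and 1.58-fold from the lowest to the highest library against 3.71-fold. Stmn2, a stathmin that regulates microtubules in growing and injured axons, chosen for full values after they were seen, was at 41.6, 51.4, 47.8, 41.1 and 49.5 CPM in cKO and 44.5, 46.1, 39.3, 42.5, 44.7 and 45.8 CPM in WT. WT13 was the lowest and cKO4 the highest library (edgeR log2 fold change 0.080, SE 0.11, adjusted p = 0.787). Gap43, the growth cone protein, also chosen afterwards, was at 27.6, 36.5, 35.7, 35.3 and 40.4 CPM in cKO and 28.6, 37.2, 38.3, 35.4, 40.2 and 29.4 CPM in WT. WT17 lay near the bottom of its range, beside cKO2 and WT8 (edgeR log2 fold change 0.010, SE 0.13, adjusted p = 0.984). Stmn3, the other stathmin, ran from 32.7 to 43.1 CPM in cKO and 38.2 to 51.7 CPM in WT (edgeR log2 fold change -0.19, SE 0.12, adjusted p = 0.47). When library totals replaced the TMM factors, the small positive log2 fold changes of Snap25, Stmn2, Gap43 and Uchl1 turned to -0.067, -0.0037, -0.075 and -0.036.

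The membrane skeleton genes had the most negative median of the 6 roles, -1.09 over 3 genes, and all 3 were highest in WT13, WT16 and WT17. Ank2, ankyrin-B (ENSMUSG00000032826, chromosome 3, 126921612 to 127499350, minus strand), was at 96.3, 103, 108, 104 and 123 CPM in cKO and 119, 145, 233, 98.7, 240.2 and 367 CPM in WT. The means were 107 ± 9.81 CPM in cKO (SD, n = 5) and 200.5 ± 100.3 CPM in WT (SD, n = 6), with an edgeR log2 fold change of -0.91 (SE 0.33, adjusted p = 0.178). WT15 lay within the cKO range and WT8 and WT9 at its upper end or just above it. Ank3, ankyrin-G, which builds the axon initial segment and was chosen for full values after they were seen, was at 33.7, 44.4, 43.04, 67.5 and 44.3 CPM in cKO and 70.2, 88.1, 169.7, 55.5, 183 and 278 CPM in WT. Only cKO6 of the cKO libraries reached above the lowest WT library, WT15. The log2 fold change of Ank3 was -1.60 (SE 0.44; edgeR adjusted p = 0.0866), and without the 3 libraries -0.62 (edgeR adjusted p = 0.0736), the most negative of the 31 in both fits. Sptbn4, the beta-spectrin of initial segments and nodes whose window with RE1 is printed above, ran from 27.9 to 55.9 CPM in cKO and 36.7 to 148 CPM in WT (edgeR log2 fold change -1.09, SE 0.42, adjusted p = 0.205). Exons of Sptbn4 overlap Gm20479 on the same strand, at 2.73 to 13.1 CPM.

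Of the genes marking the cell body, Rbfox3, which encodes the nuclear antigen NeuN (ENSMUSG00000025576, chromosome 11, 118489762 to 118911597, minus strand), was at 24.1, 26.3, 28.9, 33.7 and 38.6 CPM in cKO and 39.04, 37.4, 46.4, 30.9, 46.5 and 57.6 CPM in WT. The groups overlapped through cKO6 and cKO7 on one side and WT15 and WT9 on the other. The means were 30.3 ± 5.87 CPM in cKO (SD, n = 5) and 42.99 ± 9.27 CPM in WT (SD, n = 6), with an edgeR log2 fold change of -0.50 (SE 0.16, adjusted p = 0.071). Rbfox3 had the smallest adjusted p of the 31. It passed in edgeR without cKO7 (adjusted p = 0.0426; 1.89% of all genes were then lower), without WT15 (adjusted p = 0.0263), with library totals (adjusted p = 0.0429; 3.75%) and with no filter on low counts (adjusted p = 0.0423; 1.96%). Its log2 fold change was -0.25 without the 3 libraries (edgeR adjusted p = 0.68).

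Snhg11, a small nucleolar RNA host gene of neurons chosen for full values after they were seen (ENSMUSG00000044349, chromosome 2, 158375638 to 158386145, plus strand), was at 133, 212, 176, 196 and 231 CPM in cKO and 252, 320.1, 558, 176, 544 and 764 CPM in WT. WT13, WT16 and WT17 stood well above every other library, and WT9 came next (edgeR log2 fold change -1.20, SE 0.38, adjusted p = 0.124). The glycolytic enzyme of neurons, Eno2, ran from 95.01 to 122 CPM in cKO and 109 to 188 CPM in WT (edgeR log2 fold change -0.24, SE 0.12, adjusted p = 0.303). Uchl1, a deubiquitinating enzyme abundant in neurons, ran from 28.7 to 43.8 CPM in cKO and 27.01 to 43.4 CPM in WT (edgeR log2 fold change 0.052, SE 0.15, adjusted p = 0.913). Thy1, a surface protein of projection neurons, ran from 94.9 to 121 CPM in cKO and 96.5 to 134 CPM in WT (edgeR log2 fold change -0.052, SE 0.10, adjusted p = 0.857). Celf4, a neuronal RNA-binding protein, ran from 9.39 to 20.6 CPM in cKO and 12.5 to 22.3 CPM in WT (edgeR log2 fold change -0.44, SE 0.23, adjusted p = 0.317).

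Meg3, a maternally expressed non-coding RNA (ENSMUSG00000021268, chromosome 12, 109541001 to 109571726, plus strand), had 0 counts in all 11 libraries. It lies in a run of 55 neighbouring annotated genes with 0 counts each, on chromosome 12 from 109319452 to 109689544, which also holds the imprinted genes Dlk1, Rtl1 and Rian. Of the 55, 6 are annotated as protein-coding or long non-coding genes. The gene next to the run on the left, Begain, had 17812 counts over all libraries, and that on the right, B830012L14Rik, had 40. Genes in that run were therefore not read as absent RNA.

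The genes were then ordered by transcript length. By the longest annotated transcript, 0 of 6 genes of up to 2 kb had those libraries as the 3 highest, 8 of 12 of 2 to 4 kb, 6 of 8 of 4 to 8 kb, and 5 of 5 over 8 kb (Map1a, Map1b, Ank2, Ank3 and Sptbn4). Over all genes tested with a length the shares were 1.94, 4.98, 10.7 and 22.4%. Across the 31 genes the Spearman correlation with transcript length was 0.62 for the SD of log2 CPM over the WT libraries, 0.050 for the SD over the cKO libraries and -0.71 for the log2 fold change. Across the 68 tested genes of a wider neuronal list, described below, these were 0.43, 0.25 and -0.35. Across all 15785 genes with a length they were -0.13, -0.15 and -0.14. They are descriptions across genes, which share the 11 libraries and are not independent replicates.

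Length did not order every gene. Snap25 (4.88 kb) and Vamp1 (5.71 kb) had an SD over WT of 0.12 and 0.20 on the log2 scale. Syt1 (4.82 kb) and Snhg11 (5.86 kb), of like length, had 0.50 and 0.81. Nefh (3.99 kb) had 0.84, against 0.085 for Stmn2 (3.41 kb), the lowest of the 31. The median SD over the WT libraries was 0.45 for the 31 genes and 0.36 for all genes, and over the cKO libraries 0.20 and 0.32.

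**Figure D4:**
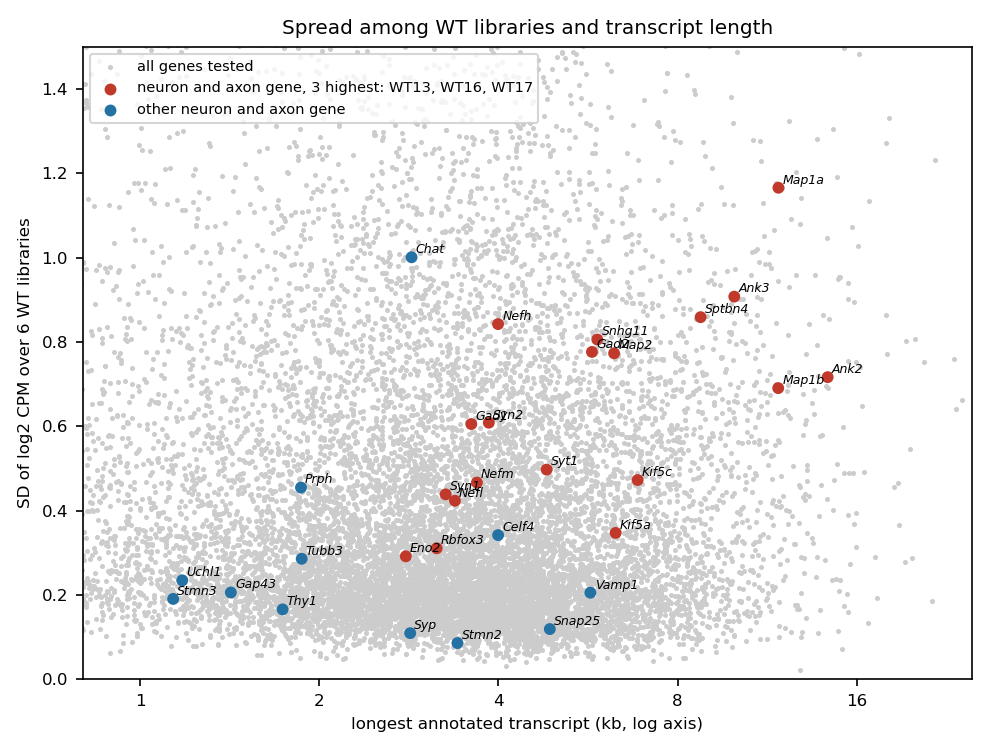
SD of log2 CPM over the 6 WT libraries (vertical axis) against the longest annotated transcript in kb (horizontal, log axis) for all genes tested (grey) and the 31 neuron and axon genes, red where WT13, WT16 and WT17 are the 3 highest libraries. Genes with a larger SD than the axis shows are not drawn; the 5 genes over 8 kb are all red and the 6 genes of up to 2 kb all blue.

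Over all genes, too, long transcripts stood higher in the same libraries. The median difference between a library and the mean of the other 10, over the 843 genes longer than 8 kb, was 0.51 in WT17, 0.23 in WT16 and 0.15 in WT13 on the log2 scale, against -0.18 to 0.0081 in the other 8 libraries. For genes of up to 2 kb it was -0.097 in WT17 and 0.14 in WT15. With the trend of each library on transcript length removed, an alternative chosen after the data were seen, 17 of the 31 genes had WT13, WT16 and WT17 as the 3 highest libraries, against 5.09% of all genes. The median log2 fold change was then -0.34, Map1a was at -1.18, Ank3 at -1.30 and Ank2 at -0.50, and 0 of the 31 passed in edgeR (4.44% of all genes did, 2.2% higher and 2.23% lower). The part of RNA length or quality in the result was not tested beyond this fit.

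**Figure D5:**
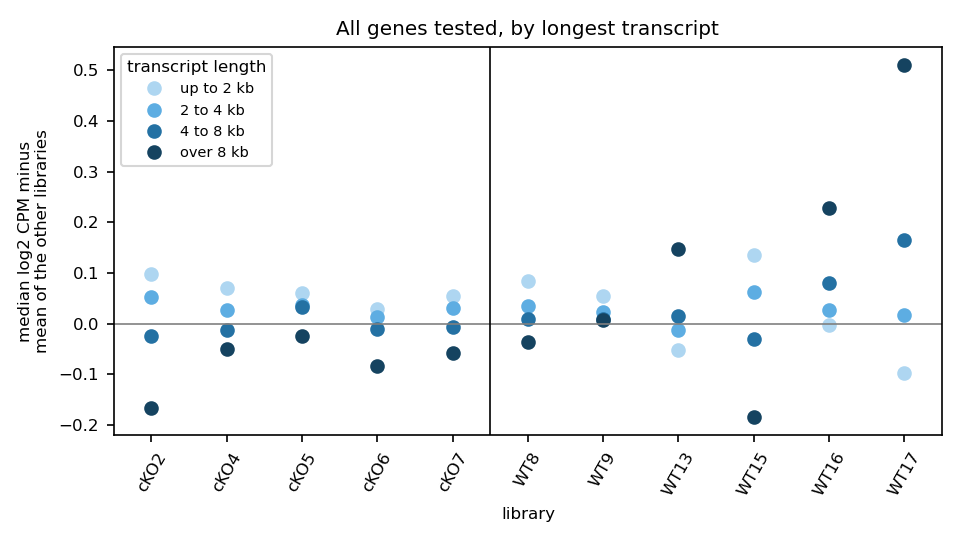
Median over all genes tested of log2 CPM in a library minus the mean of the other 10 libraries (vertical axis), by library, for 4 classes of the longest annotated transcript (shades of blue). Genes over 8 kb (darkest) reach 0.51 in WT17 and lie at or below 0.0081 in every library other than WT13, WT16 and WT17.

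Markers of other cells moved with these libraries in part. The summed level of 14 astrocyte genes, none at 0, was 1506 to 1734 CPM in cKO and 1572 to 2289 CPM in WT, with 2089, 1819 and 2289 CPM in WT13, WT16 and WT17. That of 14 oligodendrocyte genes was 4917 to 5638 CPM in cKO and 4816 to 6238 CPM in WT, highest in WT17 and lowest in WT16. The 11 endothelial genes summed to 43.0 to 52.63 CPM in cKO and 52.82 to 182 CPM in WT, highest in WT13. These ranges lay only just apart. Taken singly, 0 of the 11 genes had the libraries of 1 genotype all above those of the other, against 4.16% of all genes. In edgeR 2 of the 11 were lower in cKO, where 2.43% of all genes were. Without WT13, WT16 and WT17 it was 0 of the 11, where 2.21% of all genes were. The nuclear non-coding RNAs Malat1, Neat1 and Xist summed to 257 to 384 CPM in cKO and to 752, 707 and 1072 CPM in WT13, WT16 and WT17. In WT8 and WT9 they summed to 452 and 443 CPM, also above every cKO library, and in WT15 to 260 CPM. The 31 neuron and axon genes summed to 8423, 6982 and 11450 CPM in those 3 libraries and to 3332 to 4716 CPM in the other 8. The part of these cells and RNAs in the result was not tested.

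Pairs of genes of one family were compared over libraries on the log2 CPM scale, as were Snap25 with Syt1 and Snap25 with Nefh. Over all 11 libraries 8 of the 11 pairs that could be computed passed, 6 passed within WT alone, and 8 passed after values were centred within genotype. In all 8 pairs both genes had WT13, WT16 and WT17 as their 3 highest libraries. For 6 of the pairs these libraries stood apart from the other 8 in both genes. The lowest of the 3 was at least 1.199-fold above the highest of the 8, and no pooled coefficient is given for these clusters. For Syn1 with Syn2 and Gad1 with Gad2 the gap was smaller, 1.08-fold in Syn2 and 1.01-fold in Gad2.

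Syn1 with Syn2 gave r = 0.90 over the 11 libraries (permutation p = 0.00064, adjusted 0.00138; rho = 0.70, permutation p = 0.0206, adjusted 0.0324). Without WT13 and WT17, the libraries farthest from the median of Syn1, r was 0.59 (exact permutation p = 0.0932), so the relation rested on them. Gad1 with Gad2 gave r = 0.76 (permutation p = 0.00642, adjusted 0.00883; rho = 0.56, permutation p = 0.0765, adjusted 0.105), and without WT16 and WT17 r was 0.37 (exact permutation p = 0.342), so this relation rested on those libraries too.

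In the 8 libraries other than WT13, WT16 and WT17 none of the 11 pairs passed after adjustment over the 11. The closest was Nefl with Nefm (Pearson r = 0.82, Spearman rho = 0.79; two-sided exact permutation p = 0.0145, adjusted 0.159). Nefl with Nefh gave r = 0.56 (rho = 0.52; exact permutation p = 0.145, adjusted 0.465), and Ank2 with Ank3 gave r = 0.66 (rho = 0.52; exact permutation p = 0.0728, adjusted 0.401). Gad1 with Gad2 gave r = -0.021 (rho = -0.14; exact permutation p = 0.959, adjusted 0.959), and Syn1 with Syn2 gave r = 0.22 (rho = 0.21; exact permutation p = 0.616, adjusted 0.753).

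The SNARE protein Snap25 and the calcium sensor Syt1, which act at the same step of release, gave no correlation that passed over the 11 libraries (r = -0.13, permutation p = 0.693, adjusted 0.762; rho = 0.0091, permutation p = 0.99, adjusted 0.99; r = 0.19 without cKO2 and cKO6). Stmn2 with Stmn3 gave r = -0.35 (permutation p = 0.296, adjusted 0.362; rho = -0.26, permutation p = 0.434, adjusted 0.53; r = -0.050 without cKO4 and WT13). Snap25 with Nefh, a vesicle gene and an axon gene, gave r = 0.049 over the 11 libraries (permutation p = 0.885, adjusted 0.885). The rho was 0.19 (permutation p = 0.576, adjusted 0.633). In the 8 libraries other than WT13, WT16 and WT17 this pair gave r = 0.22 and rho = 0.29 (exact permutation p of r = 0.608, adjusted 0.753).

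A wider list of 73 other neuronal genes was read beside the 31. Of these 72 were in the table and 68 tested, and 0 were higher and 0 lower in cKO in edgeR, with 29 at an unadjusted p under 0.05, against 18.3% of all genes. DESeq2 called 9 lower (5.29% of the genes it gave an adjusted p) and limma-voom 1 (2.69% of all genes). The log2 fold change was negative for 60 of the 68, with a median of -0.41, where 51.6% of all genes were negative. Without the 3 libraries it was negative for 41, with a median of -0.041, where 49.4% of all genes were. WT13, WT16 and WT17 were the 3 highest libraries for 31 of the 68, against 6.71% of all genes. Rab3a, Rims1 and Rian were at 0.

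Of the 16 genes of axonal channels and nodes all 16 were negative (51.6% of all genes were), with a median of -0.66. An unadjusted edgeR p under 0.05 was found for 11 of them (18.3% of all genes had one). Without WT13, WT16 and WT17, 14 of the 16 were still negative (49.4% of all genes were), with a median of -0.17. Nfasc, neurofascin of nodes and initial segments, had means of 121 ± 13.7 CPM in cKO (SD, n = 5) and 197 ± 82.98 CPM in WT (SD, n = 6), with an edgeR log2 fold change of -0.70 (SE 0.27, adjusted p = 0.201). In the synaptic release list, of 17 tested with a median of -0.31, the 2 most abundant were flat. The complexin Cplx1 was at a log2 fold change of -0.028 (edgeR adjusted p = 0.92) and the vesicle SNARE Vamp2 at 0.088 (edgeR adjusted p = 0.593).

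Among 11 genes of cytoskeleton and transport, the growth-associated Basp1, with a longest transcript of 1.85 kb, was at 0.26 (edgeR adjusted p = 0.151). The kinesin Kif1a, which carries vesicle precursors and has one of 8.21 kb, was at -0.999 (edgeR adjusted p = 0.187). Among 13 of transmitter transport and receptors, the chloride exporter Slc12a5 was at -0.50 (edgeR adjusted p = 0.351) and the glycine transporter Slc6a5 at -0.17 (edgeR adjusted p = 0.593). Among 11 of nuclear and RNA-binding genes, the non-coding Miat was at -0.96 (edgeR adjusted p = 0.209) and the imprinted Peg3 at -1.13 (edgeR adjusted p = 0.144). Without the 3 libraries the 4 genes Kif1a, Slc12a5, Miat and Peg3 were at -0.17, 0.083, -0.12 and -0.37.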

How the data were processed

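The authors deposited raw counts, whole numbers for each Ensembl gene and sample, and the values show no scaling between libraries. RNA was enriched for mRNA and made into stranded libraries with a KAPA kit, per the labels' protocols. Tools named in the submitters' processing notes are Trimmomatic, FastQC and bcl2fastq 2.17, with the build mm10. For the aligner, the counter, its strand setting and the annotation, the entry is: not given in the sources used here. Between 73.5 and 83.9% of counts from 1 to 200 were even numbers in each library. Even and odd counts were thus far from equally common, so counts were not read as numbers of independent reads. The chi-square that follows has the same limit. The reason for the even counts was not tested. WT8 and WT15, the closest libraries of one genotype, differed by a chi-square of 17.8 per gene. Every library was used as its own replicate, though such a value cannot tell separate preparations of one animal from separate animals.

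The members and lists were chosen with earlier results of these data known. Counts were tested in edgeR 4.0.16 under R 4.3.3, after filterByExpr (minimum count 10, total 15) and TMM scaling, with a robust quasi-likelihood F test on genotype. Adjustment was by Benjamini-Hochberg, with 0.05 as the threshold. The SE is the log2 fold change divided by the square root of F. Log2 CPM used a prior count of 2. The procedure was tested on simulated data. Alternatives were DESeq2 1.42.0, voom in limma 3.58.1 with sample weights, RLE factors, library totals, no filter, values centred within genotype (pairs), each library left out, and WT13, WT16 and WT17 left out. An offset for each library's lowess trend (span 0.3) on transcript length was added after seeing the data. Permutation tests drew 100000 resamples over 11 libraries and were exact over 8.

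Coordinates and transcript lengths are those of GENCODE M21, on the assembly that mm10 also uses. Full values are given for 14 genes named by rule and ranges for other members. Of each other neuronal list the 2 most abundant genes are given where none passed, apart from an item that is not reported here. Genes outside that rule were chosen after their values were seen, as stated there.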

Additional observations from a re-analysis of the deposited data

Results flagged for a closer look

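Each of 31 genes was examined in each genotype, 62 groups in all, for a single library far from the rest (Dixon's ratio of the gap to the range, 95% critical value). Chance flags about 1 in 20 groups, or 3.1 here, and 1 was found. Prph was at 2.37 log2 CPM in WT17, against 3.23 to 3.62 in the other WT libraries (ratio 0.688). Nefl, Nefm and Nefh were highest in that library.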

How the results depend on the processing

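No paired analysis was possible because the genotypes share no replicate number. Under the alternatives other than leaving out one library, 192 log2 fold changes of single genes kept their direction and their side of the threshold, 16 changed sign and 8 passed that had not. With library totals 601 of all genes were lower in cKO, with 1 of the 31 neuron and axon genes (Rbfox3) and 4 of the 68 other neuronal genes, Snap25, Stmn2, Gap43 and Uchl1 turned to -0.067, -0.0037, -0.075 and -0.036, and the correlations of Snap25 with Syt1 and Stmn2 with Stmn3 to 0.20 and 0.014. With no filter 1 of the 31 (Rbfox3) and 3 of the other neuronal genes were lower. DESeq2 called 479 of all genes higher and 683 lower, 6 of the 31 lower and 9 of the others. With limma-voom the median of the 31 was -0.17, Map1a and Nefh were at -0.81 and -0.48, 1 of the others was lower and Vamp1 turned to 0.057. Without WT13, WT16 and WT17, 164 of all genes were higher, the median of the 31 was -0.0099, 0 pairs passed and Gad1 with Gad2 turned to -0.021. Log2 fold changes turned to 0.0074 (Gad1), 0.045 (Syt1), 0.025 (Syn1), 0.089 (Syn2), 0.074 (Vamp1), 0.032 (Nefl), 0.013 (Nefm), 0.12 (Kif5c) and 0.043 (Thy1). With the length trend removed 3 of the others were lower, and Vamp1 and Gap43 turned to 0.042 and -0.013. The cause was not tested for any of these.

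Leaving out one library at a time gave 170 to 388 of all genes higher and 264 to 557 lower, 0 to 5 of the 31 lower (5 without WT15: Map2, Kif5a, Ank3, Rbfox3 and Snhg11; 1 without WT8, Kif5a; 1 without cKO7, Rbfox3) and 0 to 7 of the others lower. The median of the 31 ran from -0.50 to -0.28 and the pairs past the threshold over all libraries from 7 to 8. Small log2 fold changes changed sign: Chat -0.12 to 0.48, Gap43 -0.045 to 0.086, Prph -0.16 to 0.073, Snap25 -0.044 to 0.075, Thy1 -0.11 to 0.017, Uchl1 -0.042 to 0.14 and Vamp1 -0.090 to 0.025. The correlation of Snap25 with Nefh ran from -0.16 to 0.28 and that with Syt1 from -0.32 to 0.30. Chat, the tested gene read least deeply, had 431 counts over all libraries.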
